A study of Mus musculus with 14 samples.

Results

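The expression of 10 genes of the Nrf2 antioxidant response was examined in bulk RNA-seq of 14 cultured mouse bone marrow stromal clones. The genes were Nfe2l2, Keap1, Nqo1, Hmox1, Gclc, Gclm, Slc7a11, Txnrd1, Srxn1 and Gpx4, chosen by symbol from the 30503 genes of the count table. All 10 were found and all 10 passed the filter on low counts, which left 17358 genes for testing.

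Each library came from 1 clone that was grown from a single tdTomato+ cell of the femur. Every mouse carried Fgfr3-creER, a tamoxifen-inducible Cre, and the R26R-tdTomato reporter, and tamoxifen was given at P21 (postnatal day 21). Wild-type mice for p53 gave 5 clones at P23, called Fgfr3-WT here, which were taken to passage 8. Fgfr3-p53 cKO mice gave 5 clones at P28, also taken to passage 8, and 4 clones at the age of 4 months (P4M), taken to passage 6 to 8. The paper's methods instead give passage 6 to 8 for cKO clones of both ages, so the passage of P28 clones is uncertain. The cKO mice also carried Trp53 fl/fl, so that Cre deletes Trp53, which encodes p53, in the marked cells. Replicate numbers below are running numbers within a group, and the labels do not say whether clones of a group came from separate mice. The paper's legends give the same sample sizes once as clones and once as mice. The p-values thus measure the spread between clones, which may not stand for the spread between mice. The library names of all Fgfr3-WT clones carry the number 1303 and those of all cKO clones the number 2963. The labels do not say what these numbers stand for. They are read here as library submissions, so genotype and submission cannot be told apart. Age and time since tamoxifen also differ between Fgfr3-WT and each cKO group, so they cannot be told apart from genotype either. The paper reports that wild-type clones grew more slowly than cKO clones and that a smaller share survived serial passage. Equal passage is thus not equal time in culture, and the part of these differences in the results was not tested. The comparison of P4M with P28 lies within a single submission, but age and time since tamoxifen differ there, and passage may differ.

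Nrf2, the product of Nfe2l2, is the transcription factor that drives cytoprotective genes under oxidative or electrophilic stress. In unstressed cells the adaptor Keap1 holds it and presents it to a Cul3 ubiquitin ligase for degradation. Released Nrf2 pairs with small Maf proteins and binds antioxidant response elements near genes that make glutathione, recycle thioredoxin and reduce quinones. Slc7a11 is the cystine-importing chain of system xc-, which supplies cysteine for glutathione. It responds to both Nrf2 and Atf4 and is known as a gene that p53 represses, and Gpx4 uses glutathione to reduce lipid peroxides, the step that keeps cells from ferroptosis.

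Of the 10 genes, 8 have a promoter in the RefSeq table for GRCm38.p6, taken as 250 bases before to 50 bases after a transcript start. The promoters of the 4 genes that rose in P4M clones against Fgfr3-WT clones are shown, each 5′ to 3′ on the strand of the gene, with capitals for a match to the antioxidant response element core TGACNNNGC or to the amino acid response element core TGATGNAA on either strand. The amino acid response element is bound by Atf4. No window holds both motifs, so they do not overlap.
Slc7a11: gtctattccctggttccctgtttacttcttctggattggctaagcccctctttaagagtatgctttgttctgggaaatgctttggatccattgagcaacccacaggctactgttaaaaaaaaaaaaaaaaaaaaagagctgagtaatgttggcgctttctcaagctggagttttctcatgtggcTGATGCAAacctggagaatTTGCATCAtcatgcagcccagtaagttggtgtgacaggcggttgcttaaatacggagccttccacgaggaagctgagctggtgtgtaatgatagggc
Gclm: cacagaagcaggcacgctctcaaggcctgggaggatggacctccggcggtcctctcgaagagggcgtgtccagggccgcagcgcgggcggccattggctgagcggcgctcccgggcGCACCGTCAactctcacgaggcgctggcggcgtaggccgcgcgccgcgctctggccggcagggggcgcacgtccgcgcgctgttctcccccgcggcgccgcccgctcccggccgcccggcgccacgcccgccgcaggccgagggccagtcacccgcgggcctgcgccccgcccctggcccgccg
Nfe2l2: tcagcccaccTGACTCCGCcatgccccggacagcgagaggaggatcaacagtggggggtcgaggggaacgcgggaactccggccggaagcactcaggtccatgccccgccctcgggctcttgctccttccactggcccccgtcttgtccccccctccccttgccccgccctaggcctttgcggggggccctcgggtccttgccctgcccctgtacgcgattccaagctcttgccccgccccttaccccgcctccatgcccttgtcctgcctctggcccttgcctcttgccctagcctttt
Txnrd1: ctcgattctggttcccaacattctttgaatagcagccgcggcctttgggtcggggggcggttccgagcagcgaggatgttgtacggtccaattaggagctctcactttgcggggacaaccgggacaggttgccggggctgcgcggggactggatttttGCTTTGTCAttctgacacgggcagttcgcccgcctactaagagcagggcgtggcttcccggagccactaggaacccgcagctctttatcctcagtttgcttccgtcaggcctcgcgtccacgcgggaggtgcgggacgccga
The Slc7a11 promoter (chr3:50443564-50443863, minus strand) holds 2 amino acid response element cores, which begin 66 and 47 bases before the start on opposite strands, and no antioxidant response element core. The Gclm promoter (chr3:122245307-122245606, plus strand) holds 1 antioxidant response element core on the opposite strand, 134 bases before the start. The Nfe2l2 promoter (chr2:75704614-75704913, minus strand) holds 1 such core 240 bases before the start. Of 3 Txnrd1 promoters, the second (chr10:82858956-82859255, plus strand) holds 1 on the opposite strand 92 bases before the start, and the other two hold none. The Srxn1 promoter (chr2:152105274-152105573, plus strand) also holds 1 antioxidant response element core, 28 bases after the start on the opposite strand. In Keap1, Nqo1 and Gpx4 neither set of letters occurs in these windows. Over all 32851 promoters in the table, 12.4% hold the antioxidant response element core and 3.97% the amino acid response element core, so a match is a description of these letters and not a site in use. Variants of these letters and bases outside the windows were not searched, so a window without a match may still hold a site. Gene spans below are those of GENCODE M21 on GRCm38, the assembly that mm10 names.

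Total counts per clone were 25688946 to 38958693 in Fgfr3-WT, 37606033 to 48648618 in P28 and 43757832 to 52857424 in P4M clones. Levels of a gene between clones are given as CPM (counts relative to TMM-scaled library totals), and levels between genes as TPM, which also divides by transcript length. The deleted gene, Trp53, was at 49.9 to 68.2 CPM in Fgfr3-WT clones, 2.18 to 2.84 CPM in P28 clones and 1.72 to 2.37 CPM in P4M clones. The deleted gene was thus low in each library labelled cKO and in no other. Of 7 stromal markers, 4 were at 1 CPM or more in every Fgfr3-WT clone and 6 in every clone of each cKO group. Vim was at 1432 to 6435 CPM in the 14 clones, Pdgfrb at 233 to 621 CPM and Pdgfra at 11.1 to 100.05 CPM. Prrx1 was at 4.53 CPM in P28 replicate 5 and at 45.1 to 790 CPM in the other clones. Col3a1 was at 10.04 to 26.7 CPM in P4M replicates 1, 2 and 4, against 1727 CPM in P4M replicate 3, and at 0.130 CPM in Fgfr3-WT replicate 1, and Thy1 was at most 0.0198 CPM in P4M clones and at up to 34.0 CPM in P28 clones. Col1a2, a chain of collagen I, was near absent in Fgfr3-WT replicates 1 to 4, at 0.0326 to 0.843 CPM, against 4354 CPM in Fgfr3-WT replicate 5 and 7793 to 33256 CPM in the cKO clones. Fgfr3-WT replicate 5 thus stands apart from the other Fgfr3-WT clones, and the values of Slc7a11, Srxn1, Nqo1 and Hmox1 and the counts of calls are also given without it. The blood markers Ptprc, Spi1 and Tyrobp summed to at most 0.231 CPM in any clone. Macrophage markers, of interest because macrophages hold much Hmox1, summed to 1.40 to 20.7 CPM. Cd14, at 1.24 to 20.3 CPM, was the highest of them in every clone, Csf1r and Mrc1 reached 1.46 and 1.51 CPM in P28 replicate 1, and Adgre1 was at 0 in all Fgfr3-WT clones. Erythroid markers summed to at most 0.228 CPM. Of the endothelial markers, Cdh5 was at 0 in all 14 clones and Kdr reached 12.6 CPM in P4M replicate 3. The part of these differences in the results below was not tested.

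In P28 clones against Fgfr3-WT clones, the glutathione genes moved in opposite directions: Gclm was higher, and Gclc and Gpx4 were lower. By the quasi-likelihood test of edgeR with Benjamini-Hochberg adjustment over all genes tested, 1 of the 10 genes rose, against 19.2% of all genes, and 2 fell, against 19.7% of all genes. The median log2 fold change of the 10 genes was 0.07, and that of all genes was -0.02. The median absolute log2 fold change was 0.31 over the 10 genes and 0.60 over all genes. In P4M clones against Fgfr3-WT clones, Nfe2l2, Gclm, Slc7a11 and Txnrd1 rose and Gpx4 fell. These were 4 of 10 genes, against 22.3% of all genes that rose, and 1 of 10, against 23.6% that fell. The median log2 fold change of the 10 genes was 0.39 and that of all genes -0.06. In bulk RNA a lower share of cells that express a gene and less RNA per cell cannot be told apart.

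**Figure D1:**
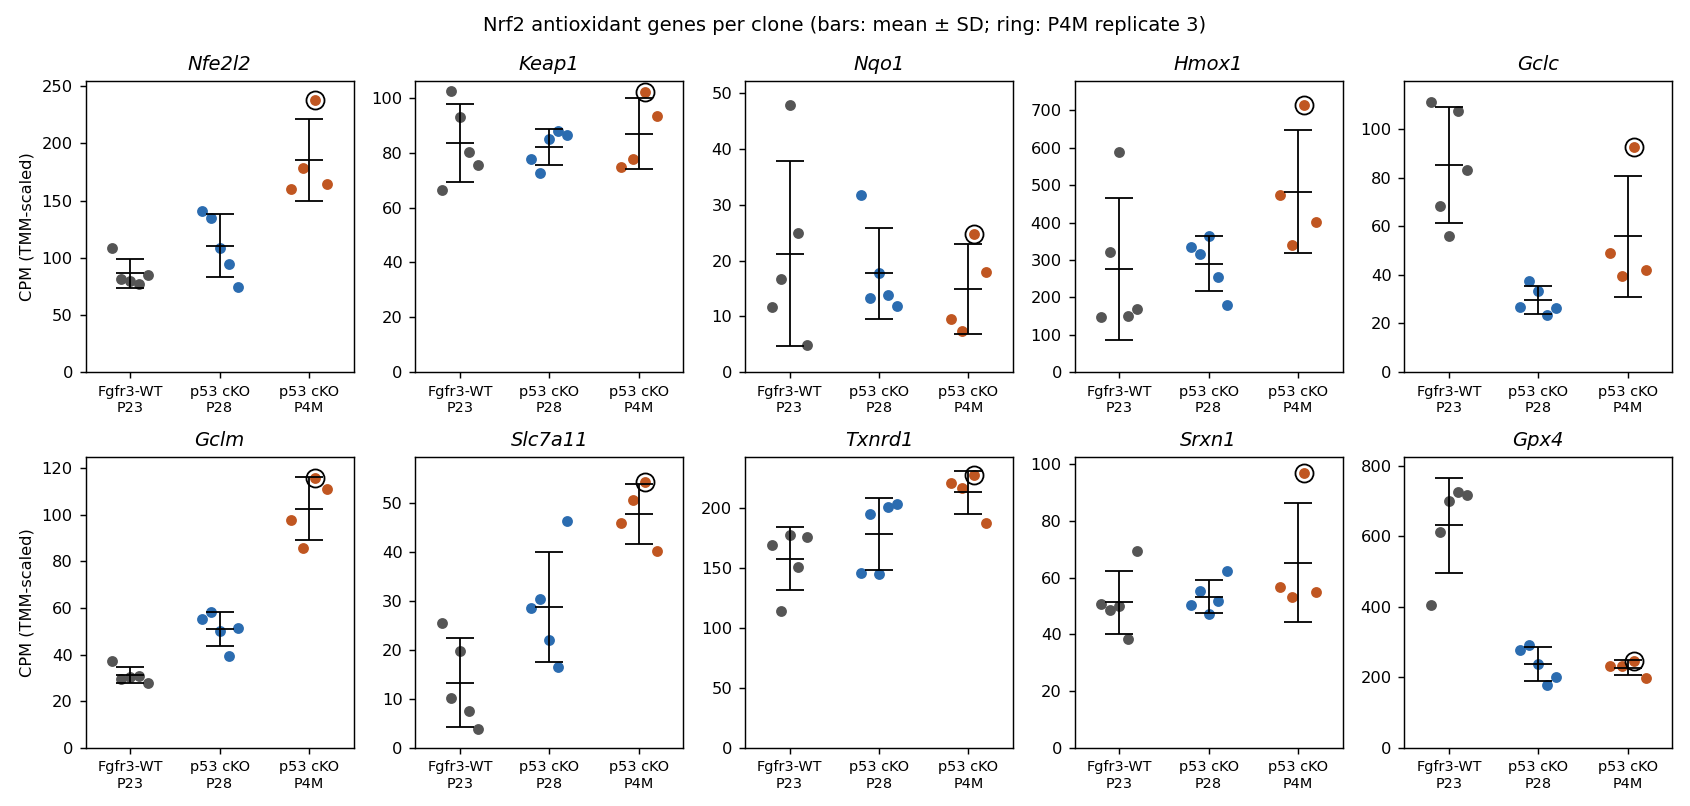
CPM of each of the 10 genes (vertical axis, linear from 0) in every clone of the 3 groups (horizontal axis), with bars for the mean ± SD of 5, 5 and 4 clones and a ring around P4M replicate 3. Gclm clones of the 3 groups do not overlap, Gpx4 is lower in all 9 cKO clones, and the ringed clone is the highest of its group in all 10 panels.

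Between the cKO groups, 2 of the 10 genes were higher in P4M than in P28 clones, Nfe2l2 and Gclm, against 3.34% of all genes, and 0 were lower, against 3.88% of all genes. At an unadjusted p under 0.05, 3 were higher and 0 lower with edgeR, against 11.9% and 13.9% of all genes. With DESeq2 3 were higher and 0 lower, against 6.62% and 8.47% of all genes, and with limma on log2(TPM + 1) 1 was higher and 0 lower, against 2.17% and 6.88%. With all cKO clones against Fgfr3-WT clones, taken as the mean of both cKO group means, 3 genes rose (Nfe2l2, Gclm and Slc7a11), against 23.1% of all genes, and 2 fell (Gclc and Gpx4), against 25.7%. All comparisons with Fgfr3-WT share the same 5 control clones, so their values are set side by side and not counted as separate evidence. By length-scaled level, the order of group means in Fgfr3-WT clones ran from Gpx4 at 1287 TPM ± 262 (SD, n = 5) through Hmox1 at 282 ± 201 and Txnrd1 at 76.2 ± 16.2 TPM down to Slc7a11, the lowest, at 2.04 TPM ± 1.46. Between these ends, Nfe2l2 (52.6 ± 10.6 TPM), Keap1 (39.7 ± 7.17), Gclc (35.7 ± 9.86), Gclm (31.1 ± 5.80), Srxn1 (28.7 ± 7.06) and Nqo1 (21.5 ± 17.3) followed in this order. Of these, neighbours from Keap1 down differed by less than the larger of their SDs, and the clones of Nfe2l2 (40.7 to 69.6 TPM) and Keap1 (33.2 to 48.0 TPM) overlapped. In P4M clones Gclm had moved up to 99.1 TPM ± 10.1 (n = 4), beside Txnrd1 at 107 ± 8.71 and Nfe2l2 at 119 ± 22.7, while Gclc was at 25.4 ± 11.2 and Slc7a11 still the lowest at 7.57 ± 0.887.

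**Figure D2:**
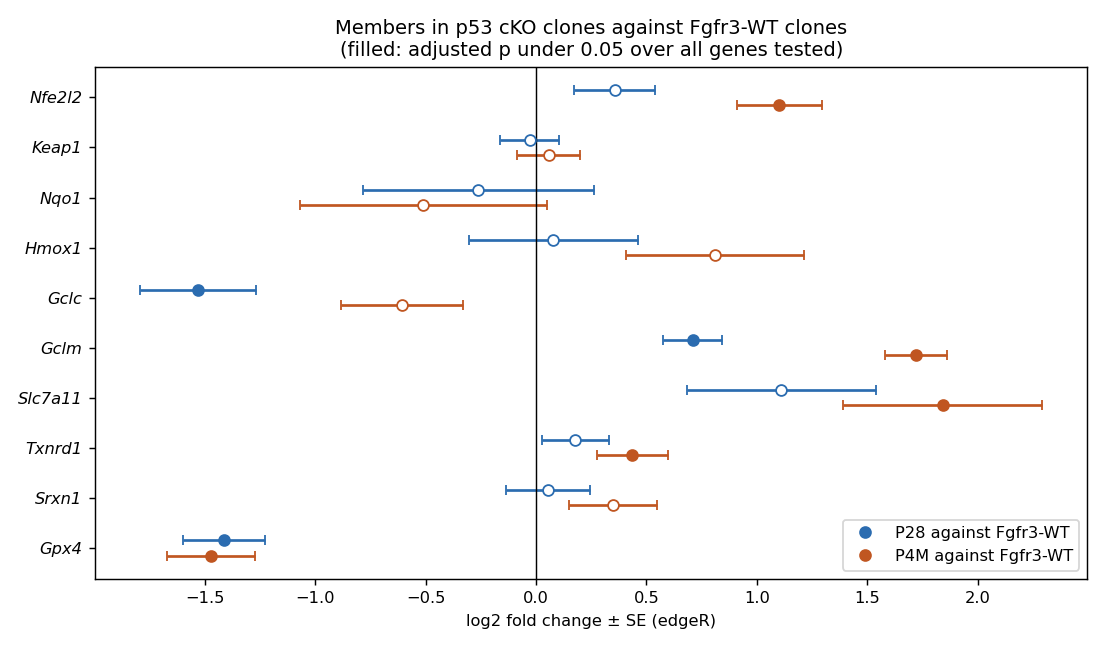
Log2 fold change ± SE of the 10 genes (horizontal axis; fit of edgeR over 14 clones) in P28 and in P4M clones against the same 5 Fgfr3-WT clones, with filled points for an adjusted p under 0.05 over all genes tested. Gpx4 lies near -1.4 in both comparisons, Gclc lies below 0 in both and is called in P28 only, and the points of Nfe2l2, Gclm and Slc7a11 lie farther above 0 in P4M.

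Nfe2l2 (ENSMUSG00000015839, chr2:75675513-75704641, minus strand), which encodes Nrf2 itself, rose in P4M clones. It was at 109, 81.3, 79.7, 76.9 and 85.0 CPM in the 5 Fgfr3-WT clones, at 141, 134, 109, 94.4 and 74.2 CPM in the 5 P28 clones and at 160, 178, 238 and 165 CPM in the 4 P4M clones. All P4M clones lay above every clone of both other groups, while P28 clones overlapped the Fgfr3-WT range. Nfe2l2 rose by 1.10 on the log2 scale (SE 0.194, adjusted p = 0.00063) in P4M, and the P28 value was 0.36 (SE 0.183, adjusted p = 0.140). The difference between P4M and P28 was 0.75 (SE 0.193, adjusted p = 0.0346 by edgeR), and this call is weak, since it was lost without any single P4M clone, with adjusted p values of 0.0506 to 0.0899, and without P28 replicate 3 (0.0714) or P28 replicate 4 (0.0624), as well as without scaling (0.0693) and with limma on TPM (0.0841 and 0.0822).

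Keap1 (ENSMUSG00000003308, chr9:21229730-21239361, minus strand), the Nrf2 inhibitor, ranged over 66.6 to 103 CPM in Fgfr3-WT, 72.6 to 87.9 CPM in P28 and 75.0 to 102 CPM in P4M clones. The groups overlapped fully. Its log2 fold change was -0.03 (SE 0.135, adjusted p = 0.883) in P28 and 0.06 (SE 0.143, adjusted p = 0.770) in P4M clones, neither of which passed the test. The sign of the first value is not fixed, since it turned positive without scaling, without a filter and on the TPM scale. Reads of an antisense gene, Gm16754, cannot be told from those of Keap1 where they overlap, because the library kit does not keep the strand, and 1299 counts in all fell on that gene over the 14 clones.

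Cul3, the scaffold of the ligase that Keap1 serves, was higher in both cKO groups. It was at 58.8, 76.6, 76.3, 86.1 and 91.4 CPM in Fgfr3-WT clones, 112, 117, 113, 116 and 126 CPM in P28 clones and 144, 141, 136 and 138 CPM in P4M clones. No cKO clone overlapped the Fgfr3-WT clones, and the log2 fold changes were 0.58 (SE 0.115, adjusted p = 0.0017) in P28 and 0.85 (SE 0.121, adjusted p = 0.000174) in P4M. Mafg, a small Maf partner of Nrf2, and Bach1, a repressor that competes for the same elements, did not pass the test in any comparison. Their P4M log2 fold changes against Fgfr3-WT were 0.28 (adjusted p = 0.397) and -0.29 (adjusted p = 0.288).

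Slc7a11 (ENSMUSG00000027737, chr3:49892526-50443614, minus strand) was at 25.4, 10.1, 19.8, 7.40 and 3.76 CPM in Fgfr3-WT clones, at 28.4, 30.4, 22.0, 16.6 and 46.2 CPM in P28 clones and at 45.8, 50.5, 54.3 and 40.0 CPM in P4M clones. All P4M clones and 3 of 5 P28 clones lay above the highest Fgfr3-WT clone, and the Fgfr3-WT clones themselves spread widely, with a coefficient of variation of 67.7%, against 39.0% in P28 and 12.9% in P4M clones. In P4M clones it was 3.58-fold the Fgfr3-WT level, which is 1.84 on the log2 scale (SE 0.451, adjusted p = 0.00519). In P28 it was 1.11 (SE 0.427) with an adjusted p of 0.0541, just outside the threshold, and it passed with DESeq2 (adjusted p = 0.0265), with limma on TPM, with at least 10 counts in every clone and without Fgfr3-WT replicate 1, Fgfr3-WT replicate 3 or P28 replicate 4. P4M and P28 clones differed by 0.73 (SE 0.444, adjusted p = 0.318). Without Fgfr3-WT replicate 5, its lowest clone, the values were 1.60 (adjusted p = 0.00518) in P4M and 0.87 (adjusted p = 0.0736) in P28.

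Slc3a2, the heavy chain that carries Slc7a11 to the membrane, was at 446, 451, 577, 467 and 287 CPM in Fgfr3-WT clones, 333, 391, 269, 216 and 229 CPM in P28 clones and 496, 501, 358 and 576 CPM in P4M clones. The Fgfr3-WT and P28 ranges overlapped. It fell by 0.63 on the log2 scale in P28 (SE 0.212, adjusted p = 0.0307), and its P4M value was 0.12 (SE 0.224, adjusted p = 0.699). Between P4M and P28 its log2 difference was 0.75 (SE 0.223, adjusted p = 0.0578), with 3 of 4 P4M clones above all P28 clones, beside 0.73 for Slc7a11.

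Glutamate-cysteine ligase, the rate-limiting enzyme of glutathione synthesis, is a dimer of the catalytic subunit Gclc and the modifier subunit Gclm. Its 2 genes differed in opposite directions in P28 clones against Fgfr3-WT clones. In P4M against Fgfr3-WT only Gclm passed the test, and from P28 to P4M both log2 differences were positive. Gclm (ENSMUSG00000028124, chr3:122245557-122270732, plus strand) was at 37.0, 29.4, 30.3, 31.0 and 27.8 CPM in Fgfr3-WT clones, 55.3, 58.1, 50.05, 39.2 and 51.5 CPM in P28 clones and 97.7, 85.9, 116 and 111 CPM in P4M clones. The 3 groups did not overlap at any clone. Gclm rose by 0.71 (SE 0.132, adjusted p = 0.00122) on the log2 scale in P28 and by 1.72 (SE 0.140, adjusted p = 7.33e-06) in P4M against Fgfr3-WT, and P4M exceeded P28 by 1.01 (SE 0.139, adjusted p = 0.00365). These 3 calls held in all 14 fits that left out 1 clone.

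Gclc (ENSMUSG00000032350, chr9:77754535-77794485, plus strand) was at 111, 68.4, 55.9, 107 and 83.1 CPM in Fgfr3-WT clones, 26.7, 37.7, 33.3, 23.6 and 26.3 CPM in P28 clones and 49.2, 39.7, 92.8 and 42.1 CPM in P4M clones. All P28 clones and 3 of 4 P4M clones lay below the lowest Fgfr3-WT clone, and P4M replicate 3 lay inside the Fgfr3-WT range. It fell by 1.53 on the log2 scale in P28 (SE 0.263, adjusted p = 0.000722). In P4M the log2 fold change of -0.61 (SE 0.275, adjusted p = 0.0865) did not pass, while it passed without P4M replicate 3, at -0.96 (adjusted p = 0.00751), and without Fgfr3-WT replicate 3, at -0.73 (adjusted p = 0.0461). Between P4M and P28 the log2 difference was 0.92 (SE 0.271, adjusted p = 0.0548) with all 4 P4M clones above the P28 clones. It passed with DESeq2 (adjusted p = 0.0177), with only the groups compared fitted (0.0424) and without Fgfr3-WT replicate 1 (0.0366) or 3 (0.0471), and without P4M replicate 3 it was 0.57 (adjusted p = 0.154).

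The ratio of Gclc to Gclm TPM, which is formed within a clone and so does not depend on the scaling between clones, was 1.22, 1.11, 0.882, 1.37 and 1.12 in the Fgfr3-WT clones. It was 0.212, 0.269, 0.306, 0.263 and 0.223 in the P28 clones and 0.228, 0.201, 0.420 and 0.176 in the P4M clones. The mean was 1.14 ± 0.179 (SD, n = 5), 0.255 ± 0.0379 (n = 5) and 0.256 ± 0.111 (n = 4), and no cKO clone reached the Fgfr3-WT range. The ratio was formed after the opposite changes of both genes had been seen and is given without a test.

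**Figure D3:**
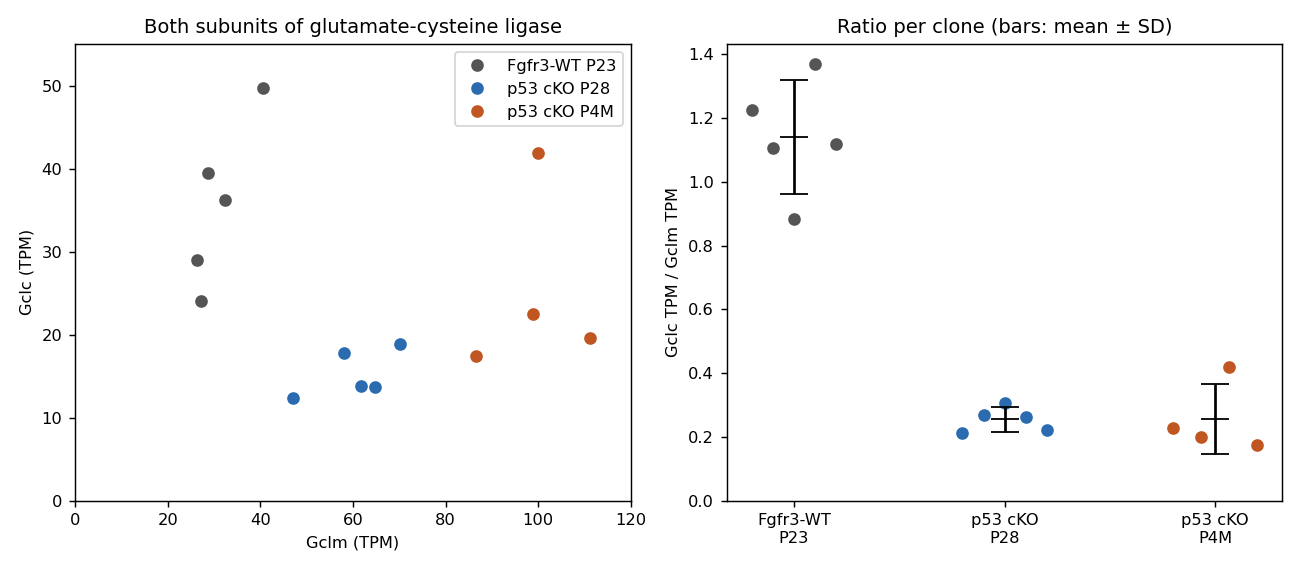
Left, Gclc TPM against Gclm TPM in each of the 14 clones, both axes linear from 0. Right, their ratio per clone with the mean ± SD of each group. Fgfr3-WT clones lie between 0.882 and 1.37, and all 9 cKO clones lie at or below 0.420, the value of P4M replicate 3.

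Gpx4 (ENSMUSG00000075706, chr10:80047166-80056439, plus strand), the selenoprotein that reduces lipid peroxides, was lower in every cKO clone. It was at 404, 612, 701, 725 and 716 CPM in Fgfr3-WT clones, 278, 291, 238, 177 and 200 CPM in P28 clones and 233, 233, 247 and 198 CPM in P4M clones. The lowest Fgfr3-WT clone lay above the highest cKO clone. On the log2 scale it fell by 1.41 in P28 (SE 0.185, adjusted p = 0.000134) and fell by 1.47 in P4M (SE 0.200, adjusted p = 0.00013), and P4M and P28 differed by -0.06 (SE 0.193, adjusted p = 0.885). Both calls against Fgfr3-WT held in all 14 fits that left out 1 clone. The value is uncertain in more than 1 respect. Genotype cannot be told apart from submission, age or time since tamoxifen. The median over chromosome 10 genes, as described below, averaged -0.43 in P28 and -0.42 in P4M clones. Sequence shared with other genes adds to this. Of 1805 windows of 50 bases, the read length, in its transcripts, 627 (34.7%) also occur in Gpx4-ps2 or AC122253.3, both processed pseudogenes, and the authors counted only reads that mapped without ambiguity. Gpx4-ps2 had 537 to 1352 counts per clone, and its highest level was 38.5 CPM in Fgfr3-WT, 21.9 CPM in P28 and 18.5 CPM in P4M clones.

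Txnrd1 (ENSMUSG00000020250, chr10:82833951-82897712, plus strand), the cytosolic thioredoxin reductase and also a selenoprotein, was at 169, 114, 177, 151 and 176 CPM in Fgfr3-WT clones, 146, 195, 145, 201 and 204 CPM in P28 clones and 221, 217, 228 and 187 CPM in P4M clones. All P4M clones lay above the highest Fgfr3-WT clone, by little for replicate 4. It rose by 0.44 (SE 0.159, adjusted p = 0.0379) in P4M, and its log2 fold change in P28 was 0.18 (SE 0.151, adjusted p = 0.374). The P4M call was lost without Fgfr3-WT replicate 2 or 4 or P4M replicate 1, 2 or 3, with adjusted p values of up to 0.0808, and with only the groups compared fitted (0.0543).

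Srxn1 (ENSMUSG00000032802, chr2:152105516-152111376, plus strand), the sulfiredoxin that restores overoxidised peroxiredoxins, ranged over 38.5 to 69.3 CPM in Fgfr3-WT, 47.3 to 62.5 CPM in P28 and 53.1 to 96.9 CPM in P4M clones. The groups overlapped, and the log2 fold changes of 0.05 (SE 0.189, adjusted p = 0.843) in P28 and 0.35 (SE 0.200, adjusted p = 0.170) in P4M did not pass. Without P4M replicate 3 the P4M value was 0.10. Without Fgfr3-WT replicate 5 the values were 0.18 in P28 and 0.48 (adjusted p = 0.0594) in P4M.

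Nqo1 (ENSMUSG00000003849, chr8:107388225-107403206, minus strand), the quinone reductase often read as the standard Nrf2 target, did not pass the test in any comparison. It was at 11.7, 16.6, 47.9, 25.0 and 4.83 CPM in Fgfr3-WT clones, 31.8, 13.3, 17.7, 13.8 and 11.8 CPM in P28 clones and 9.50, 7.28, 24.8 and 17.9 CPM in P4M clones. The Fgfr3-WT clones spanned the values of both other groups. The log2 fold changes were -0.26 (SE 0.524, adjusted p = 0.723) in P28 and -0.51 (SE 0.560, adjusted p = 0.481) in P4M, and without Fgfr3-WT replicate 3 they were 0.28 and 0.03. Without Fgfr3-WT replicate 5 they were -0.52 and -0.77.

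Hmox1 (ENSMUSG00000005413, chr8:75093621-75100589, plus strand), the inducible heme oxygenase, was at 146, 322, 589, 149 and 168 CPM in Fgfr3-WT clones, 336, 316, 364, 254 and 180 CPM in P28 clones and 473, 340, 715 and 400 CPM in P4M clones. The Fgfr3-WT and P28 ranges overlapped, and of the Fgfr3-WT clones only replicate 3 lay within the P4M range. The log2 fold changes were 0.08 (SE 0.382, adjusted p = 0.889) in P28 and 0.81 (SE 0.403, adjusted p = 0.117) in P4M, and the second was 1.29 (adjusted p = 0.00649) without Fgfr3-WT replicate 3. It also passed with limma on TPM, at 1.08 with either pseudocount (adjusted p = 0.0414 and 0.0393). Without Fgfr3-WT replicate 5 the values were -0.06 in P28 and 0.68 in P4M.

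The same clone, P4M replicate 3, had the highest CPM of the 4 P4M clones in all 10 genes. On average it lay 0.42 above its group on the log2 scale, and it was highest in its group for 30.9% of all 17358 genes tested. On the TPM scale it was highest in 9 of the 10 genes, with Gclm higher in P4M replicate 4. In the other groups no clone was highest by CPM in more than 4 of the 10 genes, and by TPM the most was 4, in Fgfr3-WT replicate 1 and in P28 replicate 5. Without P4M replicate 3, 3 of the genes were called for P28 and 5 for P4M, each set against Fgfr3-WT, of which 3 were higher and 2 lower in P4M, with Gclc in and Txnrd1 out. Between P4M and P28 only Gclm was then called, 1 gene. The shares of all genes called were then 38.7%, 40.8% and 4.56%. Without Fgfr3-WT replicate 5 the same counts were 3, 5 and 2, against 39.0%, 44.8% and 8.67% of all genes.

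**Figure D4:**
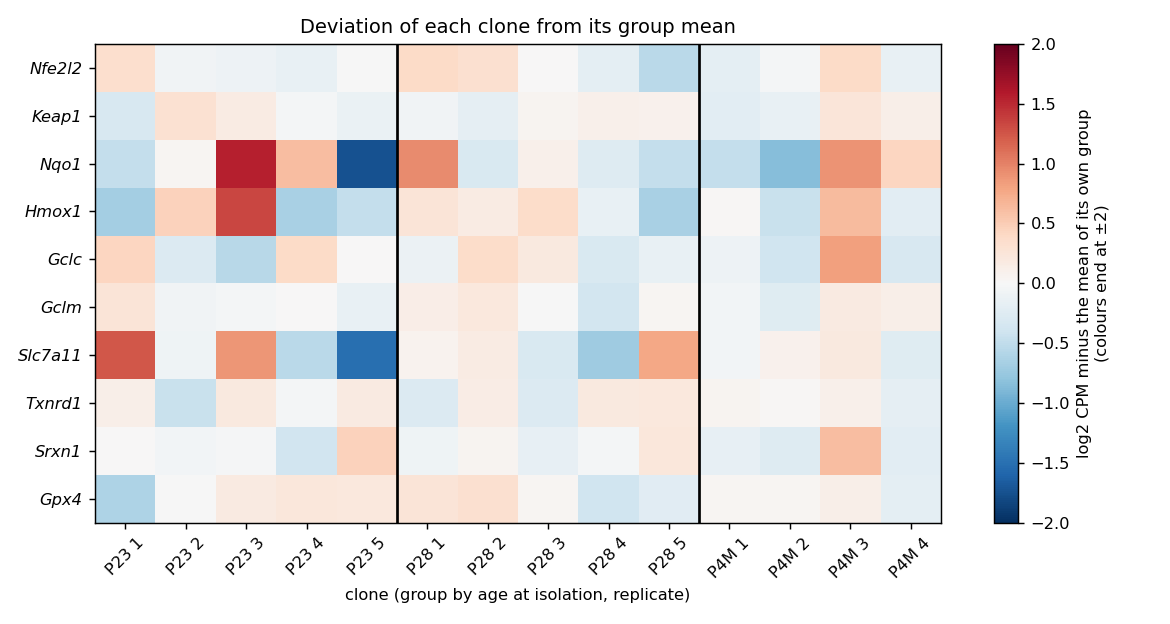
Log2 CPM of each of the 10 genes in each clone minus the mean of its own group, with red above and blue below the group mean and vertical lines between the groups. The column of P4M replicate 3 is above its group mean in all 10 genes, and the widest spread is that of Nqo1, Hmox1 and Slc7a11 among the Fgfr3-WT clones.

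After the group means were taken out, the 45 pairs of the 10 genes had Pearson correlations over the 14 clones between -0.33 (Gpx4 with Slc7a11) and 0.66 (Hmox1 with Nqo1). The next highest were Gclm with Gclc at 0.59 and Gclc with Nfe2l2 at 0.57. Outside the list, the genes most like Slc7a11 over 9278 genes compared were Ghitm (0.92), Cdyl (0.92), Mthfd2 (0.92), Paqr3 (0.91) and Shmt2 (0.91). Mthfd2 and Shmt2 encode mitochondrial enzymes of serine and one-carbon metabolism. Those most like Nqo1 were Btbd11 (0.93), Sod3 (0.92), B3gnt2 (0.88), St3gal4 (0.88) and Brf2 (0.86). The points of each correlation share a library, its depth and its scaling, and the values are a description. Slc7a11 lay -1.50 to 1.24 from its group mean in Fgfr3-WT, -0.71 to 0.77 in P28 and -0.24 to 0.20 in P4M clones. For Nqo1 this was -1.74 to 1.56, -0.48 to 0.95 and -0.86 to 0.90. Fgfr3-WT clones thus weigh most in both sets of correlations, and replicate 5 was the lowest of them for both genes.

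The wider antioxidant system was read from 96 further genes in 9 lists, of which 91 were tested. In P28 clones 18 rose and 17 fell, in P4M clones 17 rose and 20 fell, and between P4M and P28 6 were higher and 2 lower. The share called was 38.5%, 40.7% and 8.79%, near the summed shares of higher and lower genes among all genes given above, so the lists as a whole are no result. The counts per list below are a description without a set test, and the genes named are mainly those with the largest change. Of the 12 Nrf2 partners and regulators tested, 4 rose and 1 fell in P4M, against 22.3% and 23.6% of all genes. Maff, a small Maf, rose by 1.86 (SE 0.414, adjusted p = 0.00295) in P4M, where its clones spread widely, at 54.7 ± 42.3 CPM (SD). Its P28 value of 0.72 (adjusted p = 0.160) did not pass. Nfe2l1, the Nrf2 relative that drives proteasome genes, fell by 1.21 (SE 0.194, adjusted p = 0.000477) in P28 and fell by 0.62 (SE 0.206, adjusted p = 0.0249) in P4M.

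Of 23 genes tested for cystine import and for synthesis and use of glutathione, 3 rose and 4 fell in P4M, against 22.3% and 23.6% of all genes. The glutathione transferase Gsto1 went from 32.7 ± 11.1 CPM in Fgfr3-WT (SD, n = 5) to 78.0 ± 39.1 in P28 (n = 5) and 142 ± 8.71 in P4M clones (n = 4), and both differences passed (adjusted p = 0.00753 and 0.000356). Glutathione reductase, Gsr, rose in P4M by 1.25 (SE 0.215, adjusted p = 0.000547), and its P28 value of 0.53 (adjusted p = 0.0534) did not pass. The extracellular peroxidase Gpx3 had log2 fold changes of -5.63 (adjusted p = 0.00929) and -6.71 (adjusted p = 0.00684) in P28 and P4M, from a mean of 1447 CPM with an SD of 1692 over the 5 Fgfr3-WT clones. Gstm5 fell by 1.45 in P4M (SE 0.325, adjusted p = 0.00303), and its P28 value of -0.74 (adjusted p = 0.0642) did not pass.

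Of 14 thioredoxins, peroxiredoxins and sestrins, 3 rose and 3 fell in P4M, against 22.3% and 23.6% of all genes. Txn1, the substrate of Txnrd1, rose by 1.26 (SE 0.223, adjusted p = 0.000865) in P28 and by 1.34 (SE 0.233, adjusted p = 0.000595) in P4M, and Txnrd3 rose by 0.77 (SE 0.184, adjusted p = 0.00531) and 1.68 (SE 0.194, adjusted p = 4.69e-05). The mitochondrial reductase Txnrd2 stood at -0.85 (adjusted p = 0.00482) and -0.77 (adjusted p = 0.0102), and Prdx6 at -1.16 (adjusted p = 0.00189) and -0.75 (adjusted p = 0.0247). In P4M clones Txnrd1 and Txnrd3 thus rose and Txnrd2 fell. Of 7 genes of NADPH supply, 3 rose and 1 fell in each cKO group. The shares of all genes were 19.2% and 19.7% in P28 and 22.3% and 23.6% in P4M. The pentose phosphate enzymes had log2 fold changes in P4M of 0.63 for Pgd (adjusted p = 0.0341), 0.61 for Tkt (adjusted p = 0.00676) and -1.55 for Taldo1 (adjusted p = 0.00031). G6pdx, of the same pathway, did not pass, at -0.77 in P4M (adjusted p = 0.139) and -0.09 in P28 (adjusted p = 0.870).

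Of 9 genes of heme and iron handling, 2 rose and 2 fell in P28, against 19.2% and 19.7% of all genes. In P4M 1 rose and 3 fell, against 22.3% and 23.6% of all genes. Both ferritin chains were lower. Fth1 went from 8398 ± 3689 CPM in Fgfr3-WT clones to 1731 ± 515 in P28 and 1775 ± 210 in P4M clones (adjusted p = 0.000119 and 0.000167), and Ftl1 from 4364 ± 1098 to 1839 ± 512 and 1863 ± 540 CPM (adjusted p = 0.0017 and 0.00232). Ftl1 is uncertain, since 58.4% of its 50-base windows also occur in other genes, mostly its pseudogenes. Ncoa4, the receptor that delivers ferritin to autophagy, rose by 0.54 (adjusted p = 0.00312) and 1.12 (adjusted p = 3.42e-05), with 17.9% of its windows shared with a pseudogene. Fech, the last enzyme of heme synthesis, rose by 0.60 in P28 (adjusted p = 0.0177), and its P4M value of 0.33 (adjusted p = 0.165) did not pass.

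Of the 4 genes for superoxide and peroxide removal, 3 fell in P4M, against 23.6% of all genes. Among them were the extracellular dismutase Sod3 at -2.65 (SE 0.733, adjusted p = 0.0102) and the cytosolic dismutase Sod1 at -0.69 (SE 0.191, adjusted p = 0.0102). In P28 Sod3 stood at -1.99 (adjusted p = 0.0279), and the Sod1 value of -0.40 (adjusted p = 0.0886) did not pass. Sod3 spread widely between clones, at 724 ± 576 CPM (SD) in Fgfr3-WT and 116 ± 106 CPM in P4M. Of 9 genes of quinone and aldehyde reduction, 3 rose and 2 fell in each cKO group. The shares of all genes were 19.2% and 19.7% in P28 and 22.3% and 23.6% in P4M. Osgin1 went from 3.86 ± 1.93 CPM in Fgfr3-WT to 10.9 ± 2.79 in P28 and 17.6 ± 5.77 in P4M clones (adjusted p = 0.00379 and 0.000393), and Ugdh, which makes the sugar donor for glucuronidation and matrix chains, rose by 0.55 (adjusted p = 0.0225) and 1.32 (adjusted p = 0.00015). Ephx1, the microsomal epoxide hydrolase, stood at -3.71 (adjusted p = 0.000416) and -3.91 (adjusted p = 0.000435), with 55.1 ± 66.1 CPM (SD) in P4M clones. Cbr1, a carbonyl reductase, stood at -1.01 (adjusted p = 0.0298) and -2.05 (adjusted p = 0.000875). Of 8 genes tested for lipid peroxidation and ferroptosis, 1 rose and 1 fell in P28, against 19.2% and 19.7% of all genes. In P28 Lpcat3, which places polyunsaturated chains in phospholipids, rose by 0.98 (adjusted p = 0.0005), and the polyamine enzyme Sat1 fell by 2.32 (adjusted p = 0.000665). In P4M 0 of the 8 genes rose and 1 fell, against 22.3% and 23.6% of all genes. Sat1 fell there by 1.41 (adjusted p = 0.0130), and the Lpcat3 value of 0.40 (adjusted p = 0.0632) did not pass. Of 5 genes of selenoprotein synthesis, 2 fell in P4M, against 23.6% of all genes. These were Pstk at -1.46 (adjusted p = 0.00103) and Eefsec at -0.35 (adjusted p = 0.0397), and 56.8% of the windows of Pstk are shared with other genes. In P28 Pstk stood at -0.72 (adjusted p = 0.0376), and the Eefsec value of -0.27 (adjusted p = 0.0883) did not pass.

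The chromosomes that hold the 10 genes did not all differ to the same degree between cKO and Fgfr3-WT clones. These are differences from the Fgfr3-WT mean, so they do not tell which group moved. For each clone, the median log2 difference from the Fgfr3-WT mean over genes of a chromosome, relative to all autosomal genes, was -0.48 to -0.38 for chromosome 10 in the 9 cKO clones, over 491 genes. Gpx4 and Txnrd1 lie there, with differences of -1.45 and 0.45 in P4M clones on the same scale. For chromosome 3, with Gclm and Slc7a11, the median was 0.02 to 0.34 in P28 and 0.26 to 0.39 in P4M clones, against differences of 1.72 for Gclm and 2.14 for Slc7a11 in P4M. The medians were 0.18 to 0.27 for chromosome 2 (Nfe2l2 and Srxn1), 0.09 to 0.19 for chromosome 8 (Nqo1 and Hmox1) and -0.10 to 0.10 for chromosome 9 (Keap1 and Gclc). Their part in the differences of the 10 genes was not tested.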

How the data were processed

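Gene expression was measured in 14 cultured clones by SMART-Seq v4 libraries with single-end reads. Per the methods, the authors aligned reads to mm10 with TopHat and Bowtie2 and counted reads that mapped without ambiguity with HTSeq; versions are not given in the sources used here. The count table deposited by the authors holds raw counts, and their TPM table holds TPM values per transcript length, whose program is not given in the sources used here. Their depth-normalized, rlog, FPKM and expected count tables were not used. Because TPM shifted all genes between groups, it served for levels between genes and for an alternative.

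Counts were tested with edgeR 4.0.16 in R 4.3.3, with filterByExpr, TMM and robust quasi-likelihood fits of 3 group means over all 14 clones, and p-values were adjusted over 17358 genes at an FDR of 0.05. DESeq2 1.42.0, limma 3.58.1 on log2(TPM + 1) and log2(TPM + 0.1), other scalings and filters, fits of only the groups compared and fits without each clone were the alternatives. The code was tested on simulated data. No batch term could be fitted, since each submission holds 1 genotype. CPM correlations used log2 values with a prior count of 2.

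The 10 genes and the lists were chosen with earlier results of these data known. All 10 are named, with Trp53, Slc3a2, Mafg, Bach1, Cul3 and, beside the other pentose phosphate enzymes, G6pdx. Of each list, up to 2 called genes that rose and up to 2 that fell most in all cKO clones with mean log2 CPM not under 3 are named. So are the 5 genes most like Slc7a11 and Nqo1. P-values adjusted over the lists alone are not given.

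Windows shared between genes and promoter motifs were found by exact match. A count of 0 allows up to 3 counts, for counting error only, since amplified reads carry no molecular identifiers.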

Additional observations from a re-analysis of the deposited data

Results flagged for a closer look

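Of 30 tests for an outlying clone, 1 for each gene in each group, 2 found one, where chance finds about 1 in 20. Nfe2l2 in Fgfr3-WT replicate 1 was at 109 CPM, with the other Fgfr3-WT clones at 76.9 to 85.0 CPM, and its gap to them made up 0.746 of the range of the group. Srxn1 in P4M replicate 3 was at 96.9 CPM, with the other P4M clones at 53.1 to 56.6 CPM, a gap of 0.920 of the range.

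The change against Fgfr3-WT differed between the 2 cKO groups for 2 genes, by the edgeR contrast of P4M with P28. The difference of the log2 fold changes was 0.75 for Nfe2l2 (adjusted p = 0.0346) and 1.01 for Gclm (adjusted p = 0.00365), both larger in P4M, with all 4 P4M clones above all P28 clones. The Nfe2l2 call is weak, since it was lost without any single P4M clone and under other fits, as given above.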

How the results depend on the processing

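No paired analysis was possible because the labels give no replicate numbers. The 40 results for single genes kept their direction and their side of the threshold in 515 refits without 1 clone and 292 under other settings. In 45 and 28 they did not, and the cause was not tested. For all cKO clones, the fit of only the groups compared is the main fit again, so its results could not differ. A refit without a clone from outside the groups compared changes only the filter, the scaling and the estimate of the spread. On the TPM scale the median of all genes lay at 0.20 to 0.31 in P28 against Fgfr3-WT and at -0.14 to -0.19 in P4M against P28, where edgeR gave -0.02 and -0.01. The share of higher genes among those called moved with it, from 49.4% to 72.6% and 73.7% in P28, from 46.3% to 23.9% and 21.9% in P4M against P28 (33.2% without scaling) and from 47.4% to 64.3% and 65.0% in all cKO clones. Of the 10 genes, 6 were called in P28 against Fgfr3-WT by limma with either pseudocount, against 40.8% and 41.6% of all genes. Gained were Nfe2l2 (0.61, adjusted p = 0.0176 and 0.0167), Txnrd1 (0.44 and 0.45, 0.0455 and 0.0446) and Slc7a11 (1.11 and 1.53, 0.0110 and 0.0116). In P4M against P28 1 was called by limma with either pseudocount, against 9.04% and 9.63% of all genes. By edgeR without scaling 1 was also called there, against 6.94%. Between P4M and P28, pathway genes called rose from 8 to 18 with DESeq2 and to 23 with only those groups fitted, and all genes from 1254 to 2607 and 3051. Without 1 clone, the 10 genes called ranged over 3 to 4 in P28 and 4 to 7 in P4M. The shares of all genes called ranged over 33.6% to 41.7% and 38.3% to 48.6%. In P4M against P28 the 10 genes called ranged over 1 to 3, against 2.7% to 12.3% of all genes. In all cKO clones they ranged over 5 to 6, against 44.1% to 50.3%. Pathway genes called between P4M and P28 ranged over 3 to 16 and all genes over 480 to 2132. The 7 and 6 came without Fgfr3-WT replicate 3, against 43.4% and 45.6% of all genes. There Hmox1 passed in P4M and in all cKO clones (0.93, adjusted p = 0.0172) and Gclc in P4M. The 16 and 2132 came without Fgfr3-WT replicate 1. Without P28 replicate 1, 3 or 4 or any P4M clone these last counts were 3 to 5 and 480 to 809. Without P28 replicate 3 or 4 or any P4M clone, 1 of the 10 genes was called there, against 2.7% to 4.67% of all genes. The sign of Keap1 in P28 turned without scaling (0.073), without a filter (0.021) and on TPM (0.25 and 0.26), that of Nqo1 in P28 on TPM (0.27 and 0.31), that of Keap1 in P4M against P28 on TPM (-0.12 and -0.12), and that of Nqo1 in all cKO clones on TPM (0.038 and 0.054). Without 1 clone, signs turned for Keap1 (-0.13 to 0.052 in P28, -0.025 to 0.14 in P4M, -0.078 to 0.094 in all cKO clones), Nqo1 (-0.60 to 0.28, -0.87 to 0.030, -0.64 to 0.15, and -0.61 to 0.087 in P4M against P28), Hmox1 (-0.12 to 0.56 in P28), Srxn1 (-0.036 to 0.18 in P28) and Gpx4 (-0.12 to 0.048 in P4M against P28). None of these results had passed the test.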
